A study of Homo sapiens with 34 samples.

Results

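The genes described here are 10 genes of the Notch pathway in DLD1 colorectal adenocarcinoma cells: the receptors NOTCH1, NOTCH2 and NOTCH3, the ligands JAG1, JAG2, DLL1 and DLL4, and the HES genes HES1, HES4 and HES6. They are 10 of the 19974 protein-coding genes of the RefSeq gene table for GRCh38. They were chosen by name, with earlier results of these data known. Every listed ChIP-seq region and summit within each gene or within 50 kb of it was taken, which gave 94 uninduced and 107 induced regions of H3K27ac and 112 uninduced and 113 induced regions of RNA polymerase II (Pol II). H3K27ac, acetylation of lysine 27 of histone H3, marks active promoters and enhancers, and Pol II transcribes protein-coding genes.

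Notch signalling passes between touching cells. A Jagged or Delta-like ligand on one cell binds a Notch receptor on its neighbour, the receptor is cut in the membrane, and the freed intracellular piece joins the DNA-binding protein RBPJ at target genes such as HES1. In the intestinal crypt Notch activity keeps progenitors proliferating and directs cells away from the secretory fate, and it works there beside Wnt signalling, in which β-catenin activates genes through TCF proteins such as TCF7L2.

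All cells of both groups carried a stable transgene for a dominant negative TCF7L2 under a Tet-inducible promoter, and the labels do not say whether the line is a single clone. Uninduced cells received no inducer, and induced cells received doxycycline at 1 µg/mL for 24 h. Each antibody was used on 2 samples per condition, with 1 input sample per condition, at a depth that the labels give as 40 to 55M single reads of 75 bp per sample. The authors' files hold 1 peak list per antibody and condition, which leaves 4 lists to set side by side, without a replicate spread and without p-values. Cells without the transgene that received doxycycline were not analysed here, so an effect of the drug and an effect of the transgene cannot be told apart.

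Starts of epithelial genes were marked in both conditions. Of 12 markers of intestinal epithelium, 11 had an H3K27ac summit within 1 kb of the gene start in each list, all but CDH17, and 10 (uninduced) and 11 (induced) had a Pol II summit there. Of 15 markers of blood, endothelial, stromal, liver, muscle and nerve cells, 7 and 6 had an H3K27ac summit at the start and 3 and 3 a Pol II summit. The leukocyte gene PTPRC, the liver gene ALB and the muscle gene MYOD1 had none in any list.

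The sequence before the start is printed for the 4 genes on which the results turn. HES1 and HES4 hold the core motif of RBPJ, the letters TGGGAA, shown in capitals below. NOTCH1 and JAG1 had the largest differences between the lists, in Pol II and in H3K27ac respectively. Each run is the 250 bases before the gene start from RefSeq (GRCh38.p14), 5′ to 3′ on the strand of the gene: HES1 at chr3:194135898-194136147 (plus strand), HES4 at chr1:1000098-1000347 (minus strand), NOTCH1 at chr9:136546049-136546298 (minus strand) and JAG1 at chr20:10674000-10674249 (minus strand).
HES1: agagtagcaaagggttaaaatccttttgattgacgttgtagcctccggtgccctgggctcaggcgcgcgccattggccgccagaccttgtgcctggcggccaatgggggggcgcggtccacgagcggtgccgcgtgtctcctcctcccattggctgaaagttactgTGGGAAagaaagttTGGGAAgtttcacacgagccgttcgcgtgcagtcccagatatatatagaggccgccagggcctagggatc
HES4: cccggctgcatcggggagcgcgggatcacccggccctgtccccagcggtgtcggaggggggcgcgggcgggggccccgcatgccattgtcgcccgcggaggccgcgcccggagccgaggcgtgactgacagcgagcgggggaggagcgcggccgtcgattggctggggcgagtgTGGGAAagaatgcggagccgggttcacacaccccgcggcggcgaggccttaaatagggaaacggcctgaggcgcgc
NOTCH1: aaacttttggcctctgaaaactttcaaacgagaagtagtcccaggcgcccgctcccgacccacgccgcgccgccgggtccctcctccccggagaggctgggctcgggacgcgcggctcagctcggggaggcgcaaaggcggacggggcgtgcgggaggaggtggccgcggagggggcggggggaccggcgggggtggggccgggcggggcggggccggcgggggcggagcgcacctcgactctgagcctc
JAG1: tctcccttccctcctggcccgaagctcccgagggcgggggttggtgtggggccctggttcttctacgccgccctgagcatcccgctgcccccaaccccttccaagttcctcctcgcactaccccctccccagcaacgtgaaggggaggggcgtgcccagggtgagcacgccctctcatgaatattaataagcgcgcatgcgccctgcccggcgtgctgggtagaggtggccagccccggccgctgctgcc

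HES1 held TGGGAA 2 times in the same orientation, at 84 to 79 and at 70 to 65 bases before the start. HES4 held it once, at 76 to 71 bases before the start. On either strand, TGGGAA occurred in 20.2% of the 15812 promoters of the table and the longer form GTGGGAA in 5.26%. Among the 9 members with a promoter in the table, all but DLL1, only HES1 and HES4 held either form. The TCF motifs CTTTGAA and CTTTGAT, which occurred in 3.26% and 1.73% of all promoters on either strand, were in none of the 9 windows. Of the motifs that HES proteins bind, CACNAG was in the windows of HES1 and NOTCH3 (30.5% of all promoters) and CACGCG in those of DLL4, HES1 and JAG2 (12.6%), with both strands searched. In HES1 these were 3 matches to CACNAG and 2 to CACGCG. A match is a description of the letters and says nothing of binding. The 9 windows were rich in G and C, with a median GC content of 74.8% against 62.4% over all promoters, and a median of 29 CpG pairs against 17. HES1 had the lowest GC content of the 9, at 59.2%, and JAG1 the fewest CpG pairs, at 17.

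All 10 genes had a summit of both marks at the start in both conditions. Of all 19974 genes, 12219 had an H3K27ac summit at the start in both lists and 12122 a Pol II summit. Folds are the authors' own fold enrichment of a summit, a ratio over the caller's background, and a gene's value is its highest fold within 1 kb of the start (of either end for DLL1, whose start was not in the table). These folds depend on depth and input, so each pair is set beside the same ratio over all genes. For H3K27ac, the fold was higher in the induced list for 6 of the 10 genes and lower for 4, with a median ratio of 1.02 against 1.12 over the 12219 genes with a start summit in both lists. Of those genes, 67.8% were higher and 32.2% lower. Only JAG1 passed a 1.5-fold ratio, upward, where 13.7% of all genes passed it upward and 3.34% downward. Calls here depended on the setting: after centring on the median of all genes the JAG1 log2 ratio was 0.57, short of the threshold, and that of JAG2 was −0.60, past it. By −log10 q the JAG1 log2 ratio was 0.095, and in a window of 2 kb HES4 passed as well (log2 0.76). Direction moved with the window too. In a window of 2 kb the log2 ratio of HES1 went from −0.051 to 0.41 and that of DLL1 from 0.079 to −0.16. Over the whole gene with 1 kb on both sides, HES1 was at 0.12 and DLL4 went from −0.17 to 0.062. For Pol II the fold was also higher for 6 and lower for 4, with a median ratio of 1.02 against 0.943 over 12122 genes. Of those genes, 42.3% were higher and 57.7% lower. NOTCH1 and DLL1 passed 1.5-fold downward and none passed upward, against 11.4% of all genes downward and 5.36% upward. The NOTCH1 ratio stayed past the threshold under each alternative run, and the DLL1 ratio did not after centring on all genes (log2 −0.51). By −log10 q the Pol II value of NOTCH3 also passed downward (log2 −1.06). Counts of 1 and 2 in 10 genes are near these background shares.

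**Figure D1:**
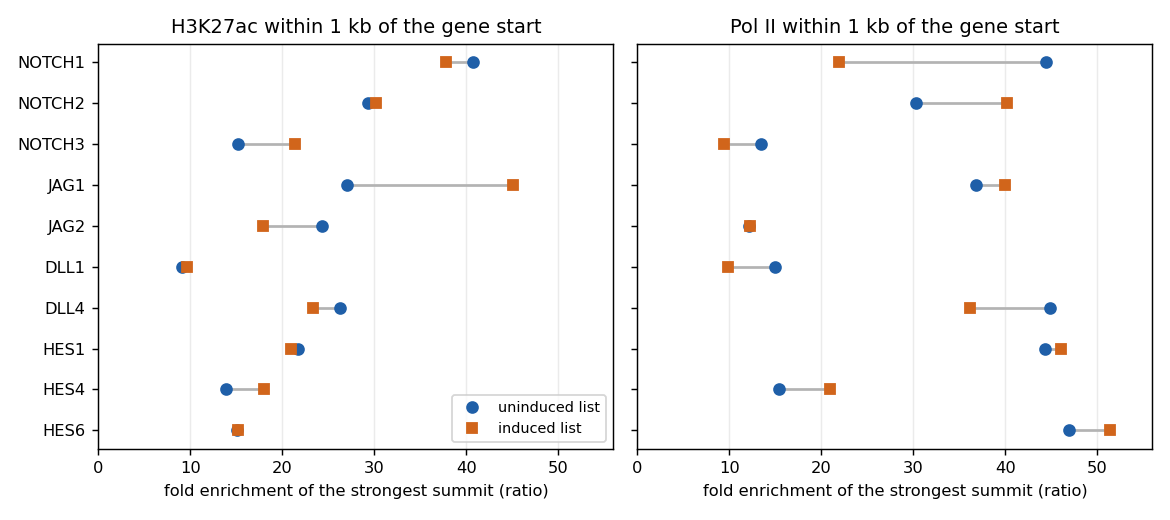
Highest fold enrichment (ratio, the authors' values) of a summit within 1 kb of the start of each of the 10 genes, for H3K27ac (left) and Pol II (right); circles are the uninduced list and squares the induced list, 1 list each, with no error bars because there is no replicate value. The widest gaps are JAG1 for H3K27ac (27.1 and 45.1) and NOTCH1 for Pol II (44.5 and 21.97).

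The marks sat differently around the starts. The same distances were not taken over all genes, so the layout is not shown to be particular to these genes. In the uninduced list, the strongest Pol II summit lay within 100 bp of the start for 8 of the 9 genes with a known start, at a median distance of 50 bp, and in the induced list for 7 of 9, at 53 bp. None of the strongest H3K27ac summits lay that close: their median distance was 464 bp (uninduced) and 460 bp (induced). JAG2 was the member whose uninduced Pol II summit was farthest from its start, at 724 bp. The strongest NOTCH1 Pol II summit lay 10 bp before the start in the uninduced list and 240 bp before it in the induced list.

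**Figure D2:**
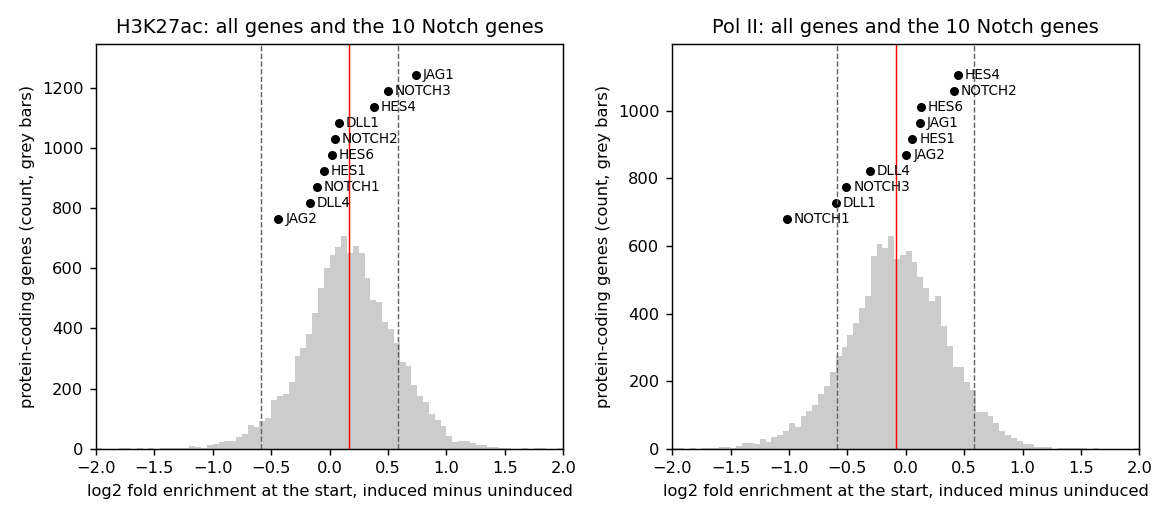
Distribution over all protein-coding genes (grey bars, count of genes) of the log2 fold at the start, induced minus uninduced, with the 10 Notch genes as points stacked by value; the red line is the median over all genes, dashed lines are 1.5-fold, and genes beyond 2 in either direction are drawn in the outermost bars. NOTCH1 is the leftmost point for Pol II and JAG1 the rightmost for H3K27ac, and most members lie between the dashed lines.

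Among the receptors, NOTCH1, a receptor that acts in intestinal progenitors, had the largest difference in Pol II. Its start fold of Pol II was 44.5 in the uninduced list and 21.97 in the induced list, a ratio of 0.494. The uninduced Pol II region at the start was 1 block of 7684 bp, chr9:136545382-136553065, which reached 7.02 kb upstream, over the long noncoding RNA gene NALT1. In the induced list 4 separate regions lay in its place, of which the one at the start measured 3302 bp and had a −log10 q of 160, against 331 for the uninduced block. The other 3 had folds of 3.92, 4.07 and 9.41. H3K27ac at the same start did not show such a gap, with folds of 40.8 and 37.8. Inside NOTCH1, the strongest H3K27ac region, 16.9 to 20.2 kb after the start, had folds of 17.8 and 21.2. The strongest Pol II region inside the gene, about 6 kb after the start (5.81 to 6.67 kb in the uninduced list), had folds of 8.31 and 7.21. The strongest regions in the rest of the window lay at the start of SEC16A, past the end of NOTCH1, with Pol II folds of 28.0 and 29.7 and H3K27ac folds of 23.4 and 33.3. The lower induced Pol II fold was at NOTCH1 and not at this neighbour.

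NOTCH2, a receptor expressed widely in epithelia, had start folds of 29.3 and 30.2 for H3K27ac and of 30.3 and 40.2 for Pol II. These values are uncertain, because the human genome holds near-identical partial copies of NOTCH2 on chromosome 1 (NOTCH2NLA, NOTCH2NLB, NOTCH2NLC and NOTCH2NLR) that could share its reads. The copies NOTCH2NLA, NOTCH2NLC and NOTCH2NLR also had Pol II start summits, with folds of 35.4 and 44.2, of 39.7 and 38.7, and of 27.1 and 25.9 in the uninduced and induced lists. NOTCH2 was sparsely marked elsewhere: regions covered 4.39 kb of its 258 kb window for H3K27ac in the uninduced list and 7.84 kb in the induced list. Of its 12 merged stretches of H3K27ac, in which overlapping regions of both lists count once, 7 were in the induced list only and 1 in the uninduced list only. The strongest of the 7, chr1:120111946-120112567, lay 42.3 kb upstream of the gene, and its −log10 q was 10.7 at a fold of 4.48. The strongest H3K27ac region inside the gene, 24 kb after the start (24.0 to 24.6 kb), had folds of 5.91 and 5.50. The strongest in the rest of the window had folds of 12.8 and 15.0. It began 49.0 kb past the end in the uninduced list and ran on beyond the 50 kb window. Pol II had only 2 stretches in the window: the start and a region 3.25 kb past the end with folds of 3.11 and 4.34.

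NOTCH3, a receptor best known from vascular smooth muscle, was the only receptor with stronger regions inside the gene than at the start for both marks. At the start the H3K27ac fold was 15.1 and 21.4, and the Pol II fold 13.4 and 9.41. A region 4.24 to 6.11 kb after the start had H3K27ac folds of 24.2 and 25.2 and Pol II folds of 19.7 and 21.4. Another, 19.1 to 20.3 kb after the start, had Pol II folds of 20.01 and 18.2, with H3K27ac at 22.5 and 21.98. In both lists, then, Pol II was enriched more over these intragenic regions than at the annotated start. The strongest H3K27ac region outside the gene lay at the start of HACL2, with folds of 28.7 and 31.2, and its Pol II folds were 16.7 and 18.5.

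Among the ligands, JAG1, a Jagged ligand and known Wnt target in colorectal cells, had the largest H3K27ac difference. Its H3K27ac start fold was 27.1 in the uninduced list and 45.1 in the induced list, a ratio of 1.67, while Pol II at the start was 36.8 and 40.0. The H3K27ac region across the start did not widen, at 7441 and 6967 bp. By −log10 q the same pair read 284 and 303. The next region inside JAG1 had H3K27ac folds of 6.73 and 11.1 and lay 5.30 to 9.51 kb after the start in the uninduced list. Upstream of JAG1 stood a pair of broad H3K27ac regions that touched no gene of the table. The nearer, 31.3 to 40.0 kb upstream in the uninduced list, was 8627 and 8720 bp long with folds of 22.03 and 28.1. The farther, 40.2 to 48.3 kb upstream, was 8072 and 8039 bp long with folds of 24.5 and 24.97. Both were longer than the H3K27ac region at the start. Pol II on the pair was weak, with folds of at most 5.45 (uninduced) and 3.93 (induced), and 4 of its small Pol II regions were in the uninduced list only.

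**Figure D3:**
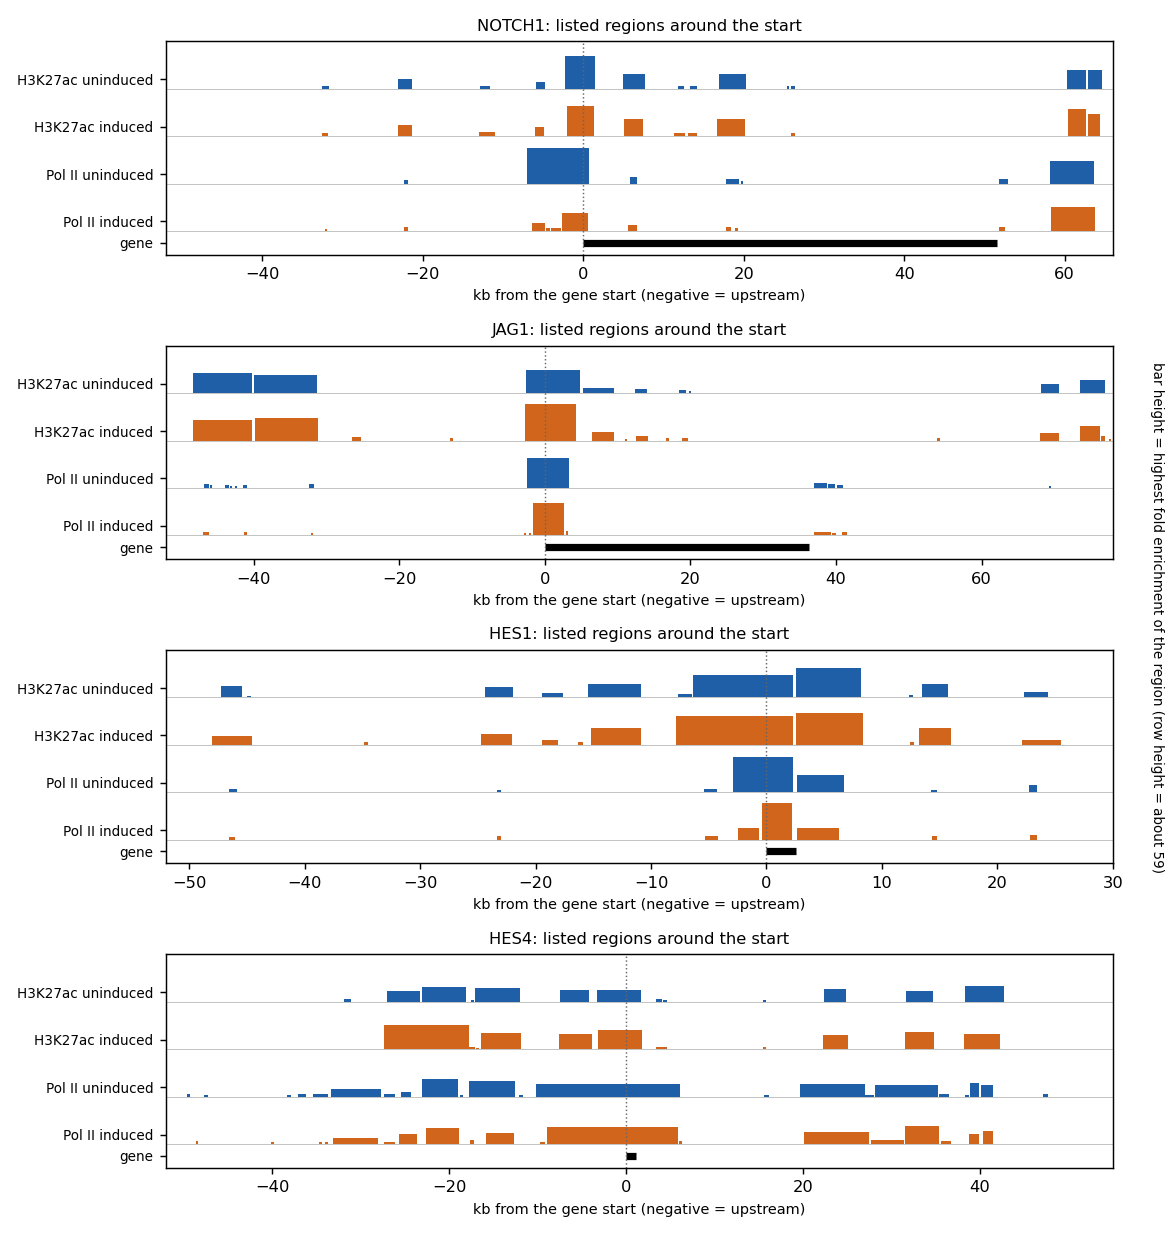
Listed regions around NOTCH1, JAG1, HES1 and HES4 by distance from the gene start in kb (negative is upstream, black bar is the gene), with a row for each mark and condition; bar height is the highest fold enrichment of the region on 1 scale for all rows. The uninduced Pol II block over the NOTCH1 start is 7684 bp long where the induced list has a 3302 bp region and 3 weaker ones, and JAG1 shows the pair of H3K27ac regions 31.3 to 48.3 kb upstream.

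JAG2, the other Jagged ligand, had the lowest H3K27ac ratio of the 10 genes. Its H3K27ac start fold was 24.3 and 17.9, a ratio of 0.737, and its Pol II start fold was 12.2 in both lists. The Pol II values came from different summits, 724 bp after the start (uninduced) and 138 bp before it (induced). The stretch with the former had folds of 12.2 and 11.0, and that with the latter 11.7 and 12.2. Another H3K27ac region, 6.67 to 8.36 kb upstream inside NUDT14, had folds of 8.13 and 4.94. The strongest regions of the window were not at the gene but began 45.1 to 46.1 kb past its end, over LINC02298. They ran on beyond the 50 kb window, and their folds are the highest over the whole region. There the H3K27ac region was 8821 and 9059 bp long with folds of 29.9 and 36.8, and the Pol II region 17216 and 18191 bp long with folds of 36.1 and 35.6.

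DLL1, a Delta-like ligand of secretory progenitors, had the lowest H3K27ac summit folds of the 10 genes within 1 kb, at 9.08 and 9.59. Its Pol II fold was 14.9 and 9.88, a ratio of 0.661. One end of DLL1 overlaps FAM120B, so the summits there cannot be given to either gene. In a window of 2 kb the Pol II fold of DLL1 took in a region beside the other end, with folds of 19.3 and 19.5, and the difference went the other way. That region lay within an H3K27ac region that overlaps LINC01624, with folds of 22.9 and 20.6. A window of 2 kb took in this H3K27ac region as well (log2 −0.16), so the low H3K27ac folds hold for 1 kb only. Farther out, 14.6 kb from the gene inside FAM120B, the strongest regions of the rest of the window had H3K27ac folds of 22.4 and 29.6 and Pol II folds of 29.0 and 40.1.

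DLL4, the Delta-like ligand of endothelial tip cells and also of the intestinal crypt, was marked along most of its 9734 bp. H3K27ac regions covered 70.2% and 71.8% of the gene, and Pol II regions 39.4% and 36.2%. Its start folds were 26.3 and 23.4 for H3K27ac and 44.8 and 36.2 for Pol II, the latter with a −log10 q of 452 and 341. The strongest Pol II region inside DLL4 past the start had folds of 7.07 and 7.07. A region just past its end, 10.3 to 13.2 kb after the start in the uninduced list, was strong in both marks, with folds of 28.0 and 25.2 for H3K27ac and of 35.1 and 30.6 for Pol II. In the rest of the window the strongest Pol II region lay at the start of CHAC1, with folds of 39.9 and 33.3, and the H3K27ac region there had folds of 32.6 and 30.8. The uninduced Pol II list held 7 stretches in the DLL4 window that the induced list lacked, and the induced list 3 that the uninduced lacked. The strongest of the 7, chr15:40879790-40880206, reached a −log10 q of 13.7 at a fold of 5.57.

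Among the targets, HES1, the repressor through which Notch holds back secretory differentiation, sat in the widest H3K27ac domain of the 3 HES genes. The H3K27ac region across its start was 8685 bp in the uninduced list and 10152 bp in the induced list. Another began 2.51 kb after the start and was 5660 and 5784 bp long. The folds of these regions were 27.3 and 36.4, and 36.3 and 39.6. Within 1 kb of the start the H3K27ac fold was 21.7 and 21.0, so the strongest acetylation lay beside the start. These folds came from different summits, 831 bp after the start (uninduced) and 720 bp before it (induced). Pol II at the start had folds of 44.3 and 46.1, with the summit 38 and 32 bp after the start, downstream of both TGGGAA matches. The uninduced Pol II region of 5138 bp was met in the induced list by a region of 2561 bp over the start and one of 1827 bp before it. The strongest H3K27ac region in the rest of the window lay at the start of LOC102724877, 10.9 to 15.5 kb upstream in the uninduced list. Its folds were 16.3 and 20.9. Past the end of HES1 a Pol II region 2.63 to 6.76 kb after the start had folds of 21.3 and 14.6. A weaker one, 22.8 to 23.5 kb after the start, had folds of 9.55 and 5.47.

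HES4, a HES gene found in humans but not in mice, lies within a crowded part of chromosome 1 with 6 other protein-coding genes within 50 kb. Its 1134 bp were covered wholly by both marks in both conditions. The Pol II region over it was far longer than the gene, 16253 bp in the uninduced list and 14771 bp in the induced list. HES4 lies where −log10 q ran high for a given fold, as described below. Whether this bears on the coverage and lengths was not tested. Start folds were 13.9 and 18.1 for H3K27ac and 15.4 and 21.0 for Pol II, with the Pol II summit 35 and 37 bp after the start. Over the whole H3K27ac region at the start, which was 4952 and 4905 bp long, the highest fold was 14.4 and 24.5. The strongest H3K27ac region of the rest of the window lay at AGRN, with folds of 19.0 and 30.2. A Pol II region inside AGRN, 24.3 to 25.5 kb upstream of HES4, had folds of 6.18 and 12.6, and the Pol II region at the start of AGRN had folds of 21.4 and 19.8. The strongest Pol II region of the induced list outside HES4 lay at the start of PLEKHN1, with a fold of 22.5.

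HES6, which counters HES1 in differentiating cells, had the highest Pol II fold of the 10 genes, 47.0 and 51.4, on a region of only 1129 and 1108 bp. Its H3K27ac start fold was 15.1 and 15.2. A region 5.004 to 5.807 kb after the start, past the end of HES6, was stronger in the induced list in both marks. Its H3K27ac fold was 9.63 and 17.3 and its Pol II fold 10.4 and 17.8. It overlaps the pseudogene TARDBPP3, so reads from the parent gene TARDBP could fall there and the values are uncertain. The strongest regions of the rest of the window lay at the start of ILKAP, with H3K27ac folds of 26.99 and 36.9 and Pol II folds of 42.1 and 45.2.

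The share of each gene's length that regions covered did not differ by over 10 percentage points in any of the 10 genes. For Pol II, coverage was higher in the induced list in 3 genes and lower in 6, with HES4 at 100% in both, and the median difference was −0.457 percentage points against −0.498 over 14460 genes. Of those genes, 20.5% were higher and 76.9% lower, and 7.11% were lower and 0.56% higher by over 10 points. The largest differences were in HES1, from 88.1% to 84.2%, and in DLL4. For H3K27ac, coverage was higher in 5 and lower in 4, with a median difference of 0.179 against −0.0746 over 14969 genes. Of those genes, 42.6% were higher and 55.2% lower, and 0.909% were higher and 1.31% lower by over 10 points. The largest H3K27ac difference was in JAG1, from 33.1% to 28.3%.

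Over the whole windows, the gene with 50 kb on both sides, Pol II regions covered less in the induced list for all 10 genes, as they did for 92.2% of all windows, with 7.76% higher. The total was 185.3 kb in the uninduced and 155.8 kb in the induced lists, each window counted on its own. The smallest share of the uninduced length was left at DLL1, 65.9% of 7.39 kb, and the largest at JAG2, 97.6% of 24.1 kb. H3K27ac covered more in 8 of the 10 windows, DLL1 and HES6 being the exceptions, where 44.1% of all windows were higher and 55.9% lower. The total was 214.1 kb and 225.0 kb. The largest differences were at HES1, 31.2 to 35.4 kb, and at NOTCH2. Windows of several members hold other genes, with 16 and 16 of the H3K27ac regions and 20 and 16 of the Pol II regions (uninduced and induced) at the start of one.

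**Figure D4:**
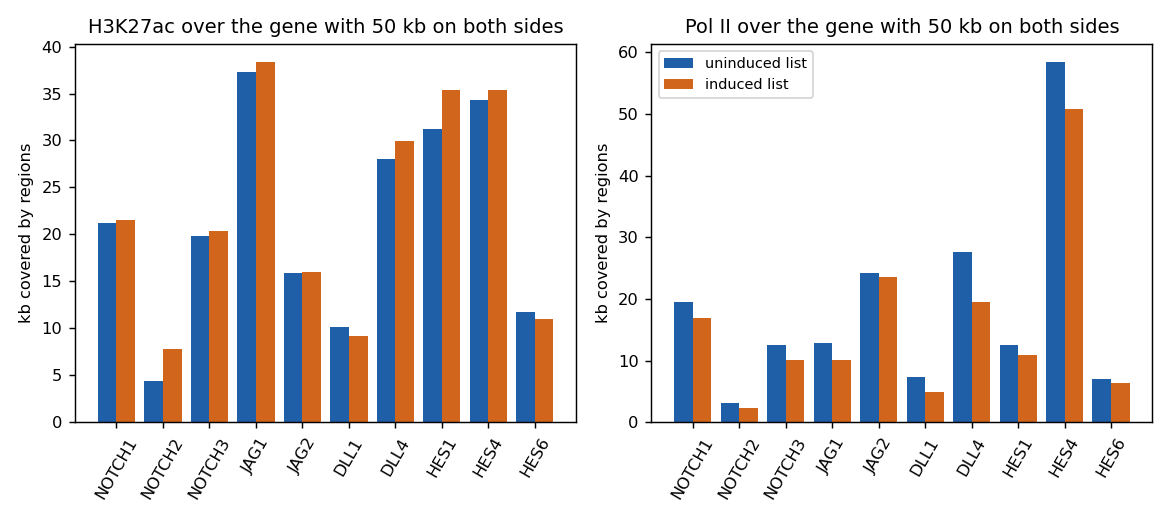
Length in kb covered by listed regions in each gene with 50 kb on both sides, for H3K27ac (left) and Pol II (right), with a bar for each list and no error bars because there is 1 list per bar. The induced Pol II bar is the lower in all 10 windows, and the induced H3K27ac bar is the higher in all but DLL1 and HES6.

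Regions listed in one condition alone were mostly weak. For H3K27ac, 10 of the 94 uninduced regions (10.6%, Wilson 95% interval 5.88 to 18.5) overlapped no induced region, against 14.5% of the whole list. In the other direction, 24 of the 107 induced regions (22.4%, 15.6 to 31.2) overlapped no uninduced one, against 12.3%. These 24 lay in the windows of NOTCH2 and JAG1 (7 each), DLL4 (5), HES1 (3), NOTCH3 and DLL1 (1 each), and their median −log10 q was 3.48. The intervals treat regions as independent, but the regions cluster in a few windows, so an interval is no test of a difference from the whole list. For Pol II, 25 of the 112 uninduced regions (22.3%, 15.6 to 30.9) had no induced partner, against 30.4%, and 12 of the 113 induced regions (10.6%, 6.18 to 17.6) had no uninduced one, against 10.8%. Of the 25, 9 lay in the HES4 window, 7 in that of DLL4 and 5 in that of JAG1. The 9 had folds of 2.19 to 3.05. The HES4 window lies where −log10 q ran high for a given fold, as described below. Whether this bears on the 9 was not tested. Counting only regions with a −log10 q of 5 or more, the shares were 5.13% and 6.49% for uninduced and induced H3K27ac, against 6.75% and 4.37% of the whole lists, and 7.32% and 1.27% for Pol II, against 12.1% and 1.8%. With regions within 1 kb counted as shared, they were 5.32% and 17.8% for H3K27ac, against 8.7% and 6.93%, and 10.7% and 3.54% for Pol II, against 18.9% and 4.53%. With a −log10 q of 10 or more, the only regions without a partner were the NOTCH2 region for induced H3K27ac and the DLL4 region for uninduced Pol II described above. Over the whole lists 0.883% of induced H3K27ac regions and 2.95% of uninduced Pol II regions of that strength had no partner, and 2.22% of uninduced H3K27ac and 0.109% of induced Pol II regions.

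Joined across both lists, the H3K27ac regions formed 113 stretches, of which 79 were shared. Another 10 (8.85%) were in the uninduced list only and 24 (21.2%) in the induced list only. Over all stretches of the genome these shares were 13.6% and 11.8%. The fold was higher in the induced list in 57 of the shared stretches and lower in 22, or 72.2% higher against 55.7% over the genome. Past 1.5-fold, 10 were higher and 1 lower, against 11.5% and 9.44% of all shared stretches. The 10 included the starts of JAG1 and HES4, as well as stretches in the windows of NOTCH1 (2), JAG1 (1 more), DLL1, DLL4, HES4 (2 more) and HES6, and the lower one was the JAG2 stretch inside NUDT14. Pol II formed 116 stretches, with 79 shared, 25 (21.6%) in the uninduced list only and 12 (10.3%) in the induced list only. The shares over the genome were 29.1% and 9.1%. Of those shared, 34 had a higher and 45 a lower fold, or 43.0% higher against 38.8% over the genome. Past 1.5-fold, 7 were lower and 2 higher, against 12.5% and 4.2%. NOTCH1 had 11 of its 12 shared H3K27ac stretches higher in the induced list, its start being the exception, and 5 of its 7 Pol II stretches lower. Of the Pol II regions near the 10 genes, 67.0% (75 of 112) and 62.8% (71 of 113) overlapped an H3K27ac region of the same condition, against 62.3% in both full lists.

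**Figure D5:**
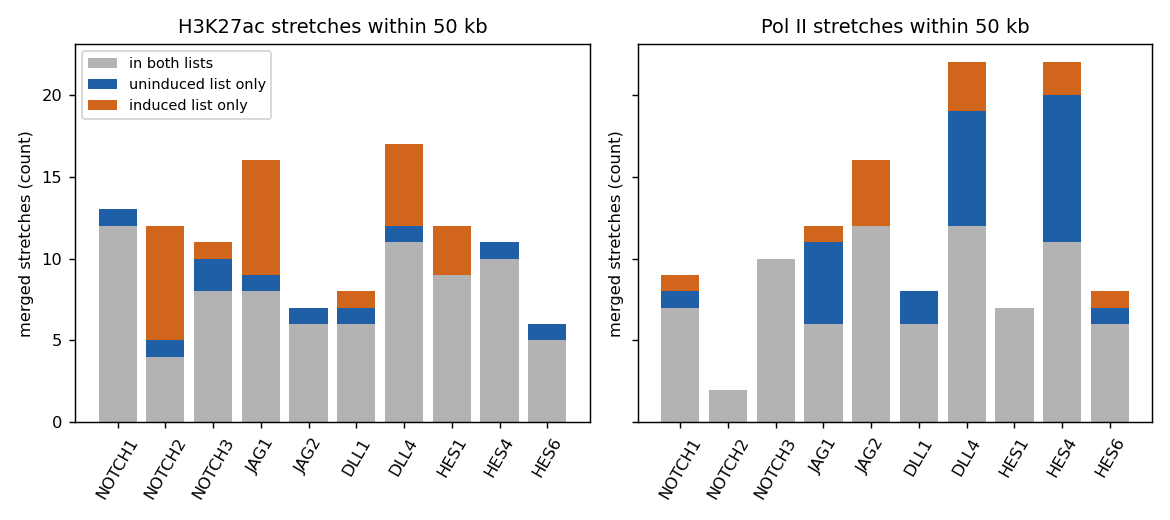
Number of merged stretches in the window of each gene, split into those in both lists, in the uninduced list only and in the induced list only, for H3K27ac (left) and Pol II (right). NOTCH2 and JAG1 each have 7 H3K27ac stretches in the induced list only, and HES4 has 9 Pol II stretches in the uninduced list only.

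The other genes of the pathway were taken from a list of 52, of which 51 matched the gene table. Of these, 42 had an H3K27ac summit at the start in both lists, with a higher induced fold in 30 and a lower one in 12, and a median ratio of 1.18. That is 71.4% higher, against 67.8% of all genes. Past 1.5-fold, 6 (14.3%) were higher and 2 (4.76%) lower, near the 13.7% and 3.34% of all genes. The largest ratios were those of the acetyltransferase gene KAT2B (14.7 and 32.8), of NRARP, a Notch target that limits the pathway (22.3 and 41.4), and of DTX2, of the Deltex family (22.5 and 36.3). The smallest were those of the target HEY2 (4.46 and 2.35), the ligand DLL3 (12.0 and 7.42) and the glycosyltransferase MFNG (9.44 and 7.73). For Pol II, 39 had a start summit in both lists, 15 higher and 24 lower, with a median ratio of 0.922. That is 38.5% higher, against 42.3% of all genes. In each direction 2 passed 1.5-fold (5.13%), against 5.36% of all genes upward and 11.4% downward. Pol II coverage was lower in 33 of 43 genes and higher in 10, and 4 (9.3%) were lower by over 10 points. Of all genes 76.9% were lower, close to the 76.7% here, and 7.11% by over 10 points. It differed downward most in MIB2, a ligase that acts on the ligands (65.9% and 36.7%), in the target HES5 (27.1% and 0%) and in LFNG, which adds sugars to Notch (33.6% and 21.7%). MIB2 and HES5 lie at 1.61 and 2.53 Mb on chromosome 1, where −log10 q values were above those of other summits of like fold (a ratio of 2.11 and 1.84 in the uninduced and 2.09 and 2.00 in the induced Pol II list). Its part in their coverage was not tested. Pol II coverage was higher in HES7 (88.9% and 95.2%), HES2 (38.1% and 39.2%) and the γ-secretase subunit APH1A (21.7% and 22.4%).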

How the data were processed

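ChIP-seq of H3K27ac and Pol II in DLD1 cells was used, with 2 samples per antibody and condition. RNA-seq samples and signal tracks were not used here. Per the submitters' processing notes, which give no role or order, the tools included MACS2 2.1.1.20160309, BWA 0.7.17-r1188, deepTools 3.5.0 and SAMtools 1.10. Both hg19 and hg38 are named there. Regions on chromosome 17 reach position 83228308, past the end of that chromosome in the older build, so positions are on GRCh38. In the authors' deposited lists each summit has its fold enrichment (a ratio over background) and its −log10 q, from 1.30 upward. The sources used here do not say whether replicates were pooled before calling. Unmatched columns with values per sample numbered 0. The lists hold no read totals, so depth rests on the labels' range per sample.

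Only the 22 autosomes and X were kept, which removed up to 0.603% of the summits of a list. Summits of a region were collapsed to 1 region with the highest fold and −log10 q. Positions are 1-based, and an overlap is at least 1 bp. The counts of regions without a partner equalled those of bedtools 2.31.1, and the functions were tested on simulated data. Gene starts came from the RefSeq promoter table, which held 15812 of the 19974 genes. For the other 4162, DLL1 among them, both gene ends served. Calls were a 1.5-fold ratio and 10 percentage points. Intervals are Wilson 95% and cover counting error only. Python 3.11.15 with pandas 2.3.3, numpy 2.4.6 and statsmodels 0.14.6 was used.

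The members, lists and rules were chosen with earlier results of these data known. All members were named. The regions named were, for each member and mark, the region at the start, the strongest by −log10 q inside the gene and the strongest in the rest of the window, plus any region without a partner at a −log10 q of 10 or more. Some weak regions inside a gene were left out under this rule, such as H3K27ac in DLL4 (folds of 2.28 and 3.21) and Pol II in JAG2 (3.77 and 3.51). Other pathway genes were named as the 3 lowest and 3 highest by Pol II coverage difference and by H3K27ac ratio. Any other region named, the merged stretches, the covered length of windows and the −log10 q set beside the fold were chosen after the values were seen. Alternatives were a −log10 q of 5, other windows, lists of equal length, another overlap, −log10 q in place of fold, and centring on all genes.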

Additional observations from a re-analysis of the deposited data

How the results depend on the processing

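No paired analysis was possible because each peak list serves both samples of a group, so the replicate numbers of the labels have no values of their own, and for the same reason no replicate could be left out. The shares of regions without a partner moved with the threshold. With only regions of a −log10 q of 5 or more, they were 5.13% (uninduced) and 6.49% (induced) for H3K27ac and 7.32% and 1.27% for Pol II. With regions within 1 kb counted as shared, they were 5.32% for uninduced H3K27ac and 10.7% and 3.54% for uninduced and induced Pol II, while that of induced H3K27ac was 17.8%. The shares of the whole lists moved as well: at a −log10 q of 5 or more they were 6.75%, 4.37%, 12.1% and 1.8% in the order above. Medians over the 10 genes close to 0 changed sign. The H3K27ac coverage difference was −0.131 percentage points with 1 kb added on both sides of the gene. The median log2 ratio of H3K27ac at the start, 0.03 as reported, was −0.082 by −log10 q and −0.13 after centring on all genes. That of Pol II, also 0.03, was −0.28 by −log10 q, where the median over all genes was −0.44. DLL1 had a Pol II log2 ratio of 0.019 in a window of 2 kb, against −0.60 within 1 kb. The cause of these differences was not tested.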

Other observations

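HES4 stood apart in how its −log10 q related to its fold. Its strongest H3K27ac start summit in the uninduced list had a −log10 q of 269, where summits of that list within 5% of its fold had a median of 84.8, and 99.9% of them were lower. High values of this kind ran along the first 3 Mb of chromosome 1. The median of the −log10 q over that of summits of like fold was 1.76, 2.43 and 2.38 in consecutive Mb from the end of the chromosome for uninduced H3K27ac, and 1.72, 2.11 and 1.84 for uninduced Pol II. In the Mb from 3 to 4 it was 0.889 and 0.947. The induced lists gave 2.01, 2.25 and 2.16 for H3K27ac and 2.11, 2.09 and 2.00 for Pol II, then 0.976 and 1.00. HES4 lies in the part with the higher values, and what separates that part was not tested. The −log10 q of HES4 therefore cannot be read beside that of the other members. The medians by −log10 q and the shares at −log10 q thresholds given above still include HES4 and its window.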
